A study of Danio rerio with 4 samples.

Results

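Chromosome 22 of the zebrafish (Danio rerio) carried 4075 of the 145501 peaks of 5-hydroxymethylcytosine (5hmC) called in capture replicate 1 and 4070 of the 145893 called in capture replicate 2. The peaks were chosen by their chromosome on the danRer7 build, and all positions below are on chromosome 22 of that build unless another chromosome is named. Chromosome 22 itself was chosen with its very strong and wide regions in these data already known. Its high ranks for score and width therefore partly describe that choice. The series held 2 captures of 5hmC-bearing DNA and 2 inputs, which are DNA of the same kind that was not captured. All 4 samples were hearts dissected by hand from untreated wild-type embryos at 48 hours post fertilisation (hpf), and at least 40 hearts went into each biological group. The strain background is labelled AB, while the growth protocol describes crosses of AB and TU fish. The capture peak lists were used, and values of the inputs were not analysed here. Whether the pools of hearts came from separate clutches is not given in the labels, so the spread between captures may be technical. A whole heart mixes cell types, and a region marked in few cells cannot be told apart from one marked weakly in many. The tissue label was not checked against marker genes, because the lists hold no expression values and no annotation of danRer7 was used.

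5hmC is made from 5-methylcytosine by the TET dioxygenases, which oxidise the methyl group. It is known both as a step in the removal of DNA methylation and as a lasting mark, and in vertebrate tissues it is found in the bodies of transcribed genes and at enhancers. In the captures, a beta-glucosyltransferase placed an azide-bearing glucose on 5hmC, biotin was joined to the azide, and streptavidin beads pulled out the DNA. A peak is a stretch that the authors' peak caller found enriched, and its score is the caller's own value. Neither a header nor a label gives the scale of the score, and both lists start at a score of 50.0, so scores rank peaks here and a ratio of scores may not be a ratio of 5hmC.

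Chromosome 22 had few peaks for its length, and yet an outsized share of the genome's strongest and widest ones. Each Mb held on average 96.5 peaks of replicate 1 and 96.3 of replicate 2 (96.4 ± 0.084, SD, n = 2), ranks of 21 and 23 among 25 chromosomes. The other 24 chromosomes had medians of 111.2 and 111.0 peaks per Mb. Between the captures the chromosome 22 density differed far less than between chromosomes. Its peaks covered 13.7% of the chromosome in replicate 1 and 14.7% in replicate 2, against medians of 14.9% and 16.0% on the others. Among chromosomes, 22 is the second shortest by the last peak end, at 42.2 Mb.

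A typical peak of chromosome 22 was much like a typical peak elsewhere. Median widths on chromosome 22 were 1185 bp (replicate 1) and 1246 bp (replicate 2), against medians over the other chromosomes of 1164 and 1229 bp. Median scores were 108.4 and 111.7 on chromosome 22, against 103.6 and 108.5, and ranked 4 of 25 in both captures. The middle of the distribution therefore stood within the range of the other chromosomes.

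For scores, the upper tail left that range only at its far end. At the 95th percentile chromosome 22 had 411.3 in replicate 1 and 431.3 in replicate 2, ranks of 2 and 7. Chromosome 7 had the highest values there, 433.4 and 457.9. At the 99th percentile the score was 828.7 in replicate 1 and 896.0 in replicate 2 on chromosome 22, against at most 783.3 and 824.4 on any other chromosome, both on chromosome 7. The gap widened at the 99.9th percentile, where chromosome 22 had 1969 and 2297, against at most 1585 and 1765, both on chromosome 4. Chromosome 22 thus held the highest value of all 25 at the 99th and 99.9th percentiles in both captures, although the latter rests on few peaks. Widths left the range earlier, with the highest 95th percentile of all 25 in both captures. It was 2920 bp (replicate 1) and 3222 bp (replicate 2) on chromosome 22, against at most 2832.5 bp on chromosome 7 and 3030 bp on chromosome 18. The 99th percentile on chromosome 22 was 4785 bp (replicate 1) and 5769 bp (replicate 2), against at most 4333 bp on chromosome 7 and 4851 bp on chromosome 18. At the 25th percentile the chromosome 22 width ranked 10 of 25 in replicate 1 and 11 of 25 in replicate 2, so narrow peaks were no wider than elsewhere.

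Peaks wider than 5 kb numbered 35 in replicate 1, which is 0.859% of the chromosome 22 peaks (Wilson interval 0.618 to 1.19%), where 0.373% of all peaks in the list were that wide. In replicate 2 there were 64, or 1.57% (1.23 to 2.00%), where 0.641% of all peaks were. Both shares were the highest of 25 chromosomes. Next came chromosome 4 in replicate 1 with 0.642% (0.448 to 0.921%), whose interval overlaps that of chromosome 22, and chromosome 18 in replicate 2 with 0.950% (0.737 to 1.22%), whose interval does not. The intervals count peaks as if they were independent and take in counting error alone. They also leave out that chromosome 22 was chosen with its wide regions known, so a lack of overlap is no test. Replicate 2 called more wide peaks than replicate 1 on chromosome 22 and in the genome at large, so the share is best read within a list. Chromosome 22 also ranked first in both lists for peaks wider than 3 kb, and for peaks wider than 5 kb after peaks within 500 bp had been joined. For peaks wider than 10 kb, of which it had 1 in replicate 1 and 4 in replicate 2, it ranked 4 and 1.

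The 1% of peaks with the highest scores included 61 from chromosome 22 in replicate 1, or 1.50% of its peaks (Wilson interval 1.17 to 1.92%), where 1.00% of all peaks were so placed by construction. In replicate 2 it was 62, or 1.52% (1.19 to 1.95%), where 0.999% of all peaks were. Chromosome 7 had a higher share in replicate 1, 1.61% (1.37 to 1.89%), while chromosome 22 was first in replicate 2, ahead of chromosome 23 with 1.32% (1.06 to 1.65%). These intervals overlap, so the order of the leading chromosomes is not settled at this limit. A stricter limit gave chromosome 22 the highest share in both lists. Of its peaks, 13 in replicate 1 (0.319%) and 16 in replicate 2 (0.393%) were in the top 0.1%, against 0.186% and 0.184% on chromosome 23, the next in both lists. These are few peaks and no intervals were computed for them, so the order is not settled at this limit either. A looser limit made it less distinct: for the top 5%, chromosome 22 ranked 3 in replicate 1 and 8 in replicate 2.

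**Figure D1:**
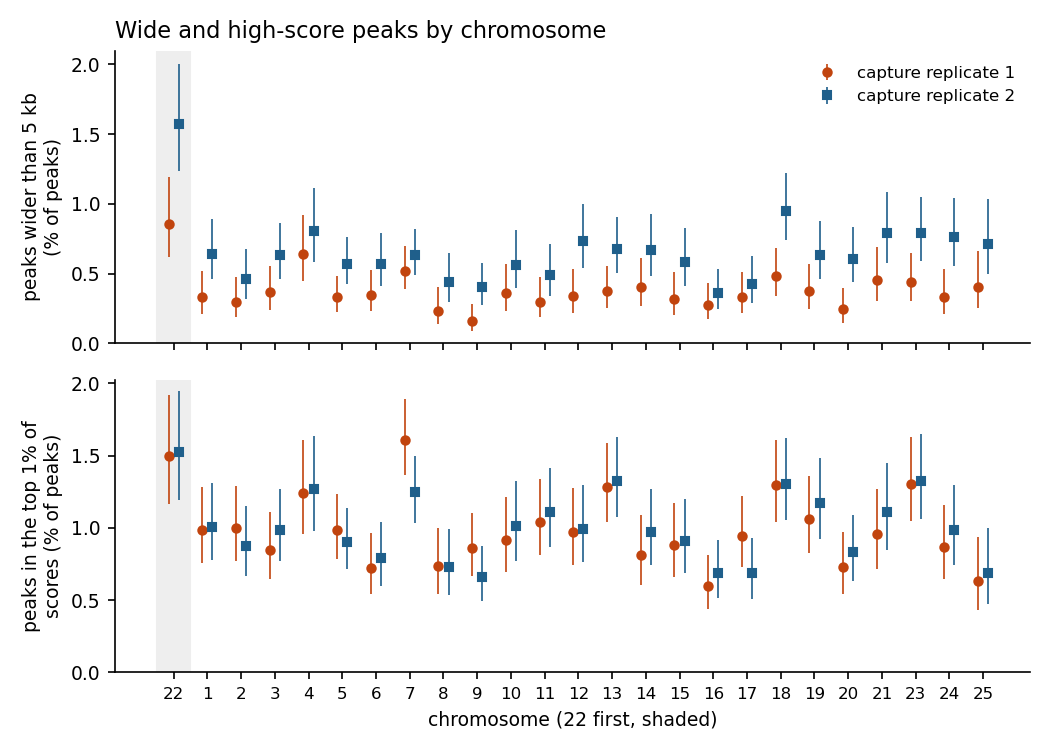
Percentage of each chromosome's 5hmC peaks that are wider than 5 kb (upper panel) and that lie in the 1% of their list with the highest score (lower panel), chromosome 22 first and shaded. Points are the 2 captures and bars are Wilson 95% intervals. Chromosome 22 stands at 0.859% and 1.57% in the upper panel, above every other chromosome in each capture. In the lower panel it stands just below chromosome 7 in replicate 1 and highest in replicate 2, with intervals that overlap those of the nearest chromosomes.

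Consensus regions, made by merging overlapping peaks of the 2 lists and keeping those to which both contributed, showed the same concentration at the top. Chromosome 22 had 3114 of the 110315 consensus regions, or 2.82%. Ordered by the mean of their score ranks in the 2 lists, it held 9 of the first 100, 19 of the first 200 and 43 of the first 1000. These are 3.19, 3.37 and 1.52 times its share of all regions, while the highest such ratios on another chromosome were 1.91 on chromosome 4, 1.79 on chromosome 7 and 1.50 on chromosome 23. Ordered by width, it held 13 of the widest 100 (4.61 times its share) and 58 of the widest 1000 (2.05 times), against at most 1.91 and 1.37 times on another chromosome. The excess faded as more regions were taken, to 1.10 times by score and 1.20 times by width for the first 10000. By score, chromosome 22 ranked 3 for the first 2000 (1.29 times, against 1.45 on chromosome 7) and 7 for the first 10000. By width it still ranked 1 for the first 10000.

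**Figure D2:**
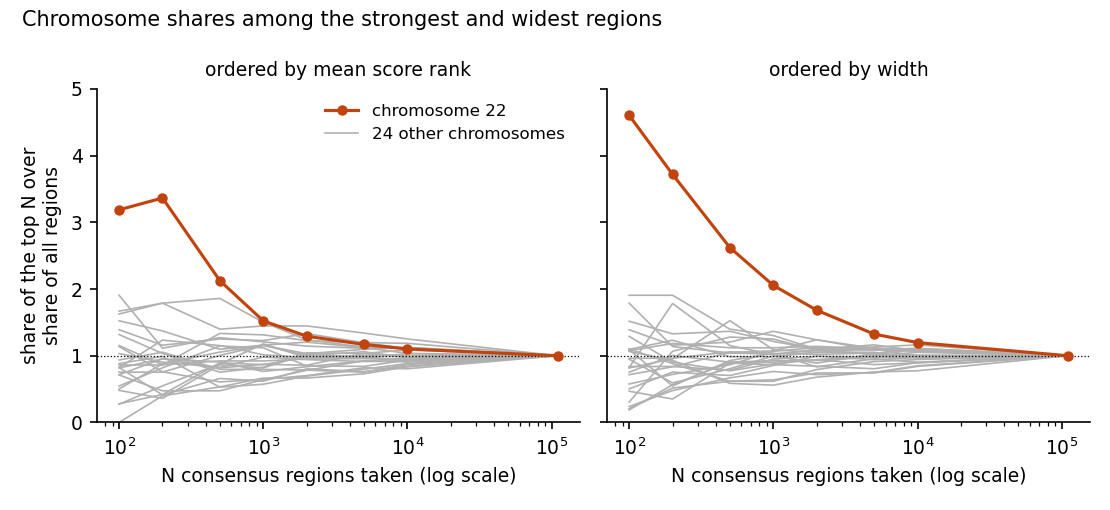
Share of each chromosome among the N strongest (left) or widest (right) consensus regions, divided by its share of all 110315 regions, for N from 100 upward on a log scale. Chromosome 22 is in colour, the 24 other chromosomes are in grey and the dotted line marks a ratio of 1. The chromosome 22 line starts at 3.19 on the left and 4.61 on the right and approaches 1 as N grows.

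Regions both strong and wide were defined as consensus regions in the top 1% of the genome by mean score rank and in the top 1% by width, which meant a mean rank of at most 1471 and a width of at least 5294 bp. Score and width chose these regions, so their high values describe the choice. Chromosome 22 had 22 of them, 0.706% of its regions (Wilson interval 0.467 to 1.07%), where 0.310% of all consensus regions met the limits (342 in the genome). The next shares were 0.519% on both chromosome 23 (24 regions, interval 0.349 to 0.771%) and chromosome 4 (18 regions, interval 0.328 to 0.818%). Both intervals overlap that of chromosome 22, so the order of these chromosomes is not settled by these counts. Chromosome 7 had the most regions, 32, or 0.472%. Per Mb the values were 0.521 on chromosome 22 and 0.517 on chromosome 23, which are nearly equal. With the top 1% by score and by width taken anew among the peaks of each list, which lowered the width limit to 4020 bp in replicate 1 and 4490 bp in replicate 2, chromosome 22 had 38 such peaks in replicate 1 and 39 in replicate 2. Its percentage was the highest in each list (0.933% and 0.958%, against 0.660% and 0.654% on chromosome 23). Of the chromosome 22 regions, 25 more met the score limit only and 39 the width limit only. In all, 47 of its 3114 regions met the score limit and 61 the width limit, where 1% of all consensus regions met each by construction. The share of all regions that met only 1 limit was not computed. The region just inside the score limit was 19207510 to 19213617 (mean rank 1038), and the wide region just outside was 16683574 to 16690904 (mean rank 1494). The one just inside the width limit was 11376597 to 11382066 (5470 bp), and the strong region just outside was 35280417 to 35285618 (5202 bp).

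These 22 regions were 5470 to 14629 bp wide, with a median of 8901 bp, and together spanned 202.3 kb, which is 0.479% of the chromosome and 3.61% of its consensus bases. Their positions were uneven. Between 10 and 25 Mb lay 19 of them, and the other 3 were in the windows starting at 33, 36 and 38 Mb, beyond a stretch of 11.1 Mb without any. Near 11 Mb and near 17 Mb there were groups of 4, and near 21 Mb a group of 3, with regions joined across gaps of up to 100 kb.

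The group near 11 Mb ran from 11262427 to 11382066, a length of 119.6 kb in which 22 consensus regions covered 83.3% of the bases. Its first member, at 11262427 to 11277055 (14629 bp), scored 2184 in replicate 1 and 3100 in replicate 2. Next to it, 11283555 to 11291070 scored 1247 and 1490, and 11291534 to 11301723 scored 2194 and 2409, with 463 bp between the pair. After a gap of 74.9 kb came 11376597 to 11382066, with 1023 and 737.3. That gap was not empty of 5hmC. The 18 other regions of the group scored 59.2 to 1012 in replicate 1 (median 290.8) and 56.3 to 826.0 in replicate 2 (median 322.5). They included the widest region of the chromosome, 11331278 to 11346291 (15014 bp), which scored only 468.8 and 512.4 and was divided into 4 peaks in replicate 1 and 2 in replicate 2.

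The group near 17 Mb was shorter, at 80.7 kb from 17114445 to 17195180, with 18 consensus regions over 81.6% of it. Its strong and wide members were at 17114445 to 17125794 (scores of 1255 in replicate 1 and 1266 in replicate 2), 17132813 to 17142763 (1970 and 1133), 17157233 to 17166596 (1282 and 1459) and 17185698 to 17195180 (1507 and 2333). The second of these led in replicate 1 and the last in replicate 2, so the captures did not give the same order within the group. Between them lay 17166894 to 17171635, which ranked 5 by mean score rank on the chromosome (scores 1952 and 1811) but, at 4742 bp, missed the width limit.

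In the group near 21 Mb, 3 regions stood within 48.3 kb, at 21284714 to 21292533 (scores 916.3 in replicate 1 and 861.5 in replicate 2), 21301181 to 21310579 (1172 and 1465) and 21321534 to 21332986 (803.2 and 1290). Consensus regions covered 85.2% of the group. Just beyond it, 21337692 to 21348384 (10693 bp) was among the 10 widest regions of the chromosome but scored 399.5 in replicate 1 and 804.1 in replicate 2. In the whole genome, 21 groups held 3 or more strong and wide regions and 9 held 4 or more, of which chromosome 22 had 3 and 2. Chromosome 7 also had 3 and 2, and the group with the most members, 7, was on chromosome 7 (70438293 to 70561391). Of the chromosome 22 regions, 13 of 22 shared a group with another, against 133 of 320 (41.6%) on the other chromosomes. The share was larger on chromosomes 14 (13 of 17) and 7 (20 of 32) and smaller on each of the rest, with 11 of 20 on chromosome 18. The 13 regions lay in only 4 groups.

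The remaining strong and wide regions stood alone or in a pair. At 13266411 to 13272042 (scores 942.1 in replicate 1 and 1221 in replicate 2) and 13272052 to 13280469 (881.3 and 970.2), a pair was separated by 9 bp. A lone region at 10892663 to 10901099 scored 1535 and 1728 and was the first strong and wide region along the chromosome. Its neighbour at 10904118 to 10916797 (12680 bp) scored 1200 and 586.9. Also alone were 12561717 to 12568799 (1569 and 1142), 18957438 to 18969907 (1651 and 1692), 19207510 to 19213617 (770.9 and 810.3), 20701461 to 20708764 (1437 and 1121) and 21941027 to 21949249 (925.7 and 1008). All of these lay between 10 and 22 Mb.

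The 3 distant regions were among the strongest. At 38793824 to 38804162 (10339 bp) the scores were 2360 in replicate 1 and 2639 in replicate 2, the best mean rank in the genome. At 33030902 to 33038739 (7838 bp) they were 2075 and 2419, and at 36042829 to 36056628 (13800 bp) 1516 and 1550. The nearest pair among them was 2.74 Mb apart.

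The captures drew these regions with nearly the same outlines. Their left edges differed by a median of 65 bp and their right edges by 103 bp, with a largest difference of 917 bp on the left and 1327 bp on the right. Over all 2925 chromosome 22 pairs in which neither peak overlapped any other, the edges differed by medians of 73 and 74 bp, although those peaks were much narrower. Inside the outlines, 14 of the 22 regions had the same number of peaks in both lists, and 8 of these 14 were 1 peak in both. In the rest the caller divided the signal differently: 6 had more peaks in replicate 1 and 2 had more in replicate 2. Scores were higher in replicate 2 for 17 of the 22, and the score of replicate 2 over that of replicate 1 had a median of 1.10 and ranged from 0.575 to 1.61. Among all 2925 pairs the quartiles of this ratio were 0.762 and 1.41, and 16 of the 22 strong and wide regions lay between them. The limit on the mean score rank kept out regions that were weak in either list, while the pairs had no such limit. The narrow range of the ratio thus partly describes the choice and is no measure of agreement.

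**Figure D3:**
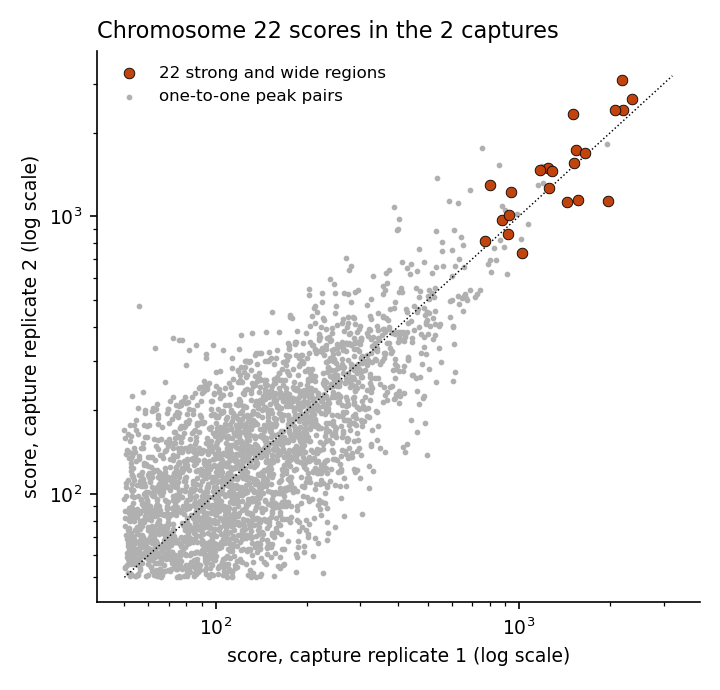
Scores of chromosome 22 in capture replicate 1 (x axis) and capture replicate 2 (y axis), both on log scales. Grey points are the 2925 pairs in which neither peak overlapped any other, coloured points are the highest scores in the 22 strong and wide regions, and the dotted line marks equal scores. The coloured points run from 770.9 to 2360 in replicate 1 and from 737.3 to 3100 in replicate 2, on both sides of the line.

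Along the chromosome the number of regions varied over several Mb. In the 42 full windows of 1 Mb, the median was 79 consensus regions per window (quartiles 38.3 and 107), with 5 in the emptiest and 147 in the fullest. Under 30 regions were found in 10 windows, or 23.8%, a share exceeded only on chromosome 4 (56.5%), and the coefficient of variation over windows was 56.6%, rank 3 of 25. The lower quartile ranked 23 of 25 and the median 12, so the low mean density of chromosome 22 went with a set of nearly empty windows and not with a low median.

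The 5 fullest windows were 17 to 18 Mb with 147 consensus regions (175 peaks in replicate 1 and 173 in replicate 2), 11 to 12 Mb with 142 (176 and 173), 32 to 33 Mb with 137 (169 and 167), 35 to 36 Mb with 126 (161 and 152) and 21 to 22 Mb with 123 (150 and 157). Those at 11, 17 and 21 Mb each held 4 strong and wide regions, and those at 32 and 35 Mb held none. Regions covered 34.2% of the 11 Mb window, the highest coverage on the chromosome, against 26.6% of the 32 Mb window with nearly as many regions. Of the 1344 full windows of the genome, 13 had 4 or more strong and wide regions, and 3 of those were on chromosome 22. No chromosome 22 window reached the 8 found at 23 to 24 Mb of chromosome 23.

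The 5 emptiest windows lay in separate parts. In the first part, the windows starting at 6, 8 and 9 Mb had 17, 8 and 6 consensus regions, and further on those starting at 28 and 29 Mb had 5 and 12. In these windows replicate 1 had 5 to 23 peaks and replicate 2 had 10 to 32. The longest stretches with no peak in either list lay in the same parts, at 28697310 to 29095697 (398.4 kb), 8937224 to 9242493 (305.3 kb) and 7550626 to 7785169 (234.5 kb). The first was longer than the longest such stretch on any chromosome but 4. In all, 32 stretches over 100 kb had no peak, rank 3 of 25 after chromosomes 4 and 1, although chromosome 22 is short.

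**Figure D4:**
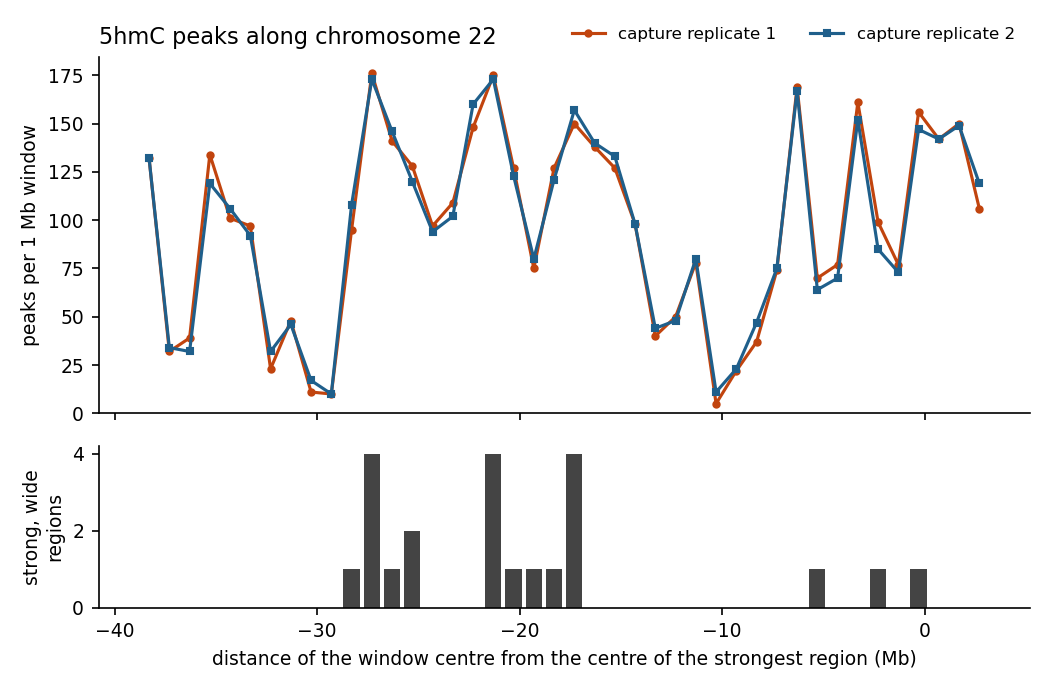
Peaks of both captures (upper panel) and strong and wide consensus regions (lower panel) in the 42 full windows of 1 Mb of chromosome 22, plotted by the distance of the window centre from the centre of the strongest region. The captures follow each other closely through dense and sparse parts. The windows with 4 strong and wide regions lie in the densest stretch, from 10 to 25 Mb of the chromosome. On the axis of distance its window centres stand from -28.3 to -14.3 Mb.

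With bounds chosen after the values had been seen, the stretch from 10 to 25 Mb held 127.4 (replicate 1) and 128.5 (replicate 2) peaks per Mb, and the stretch from 31 to 42 Mb held 116.5 and 113.0. Between them, from 25 to 31 Mb, there were 38.7 and 42.2, and from 6 to 10 Mb 23.0 and 26.3. The stretches from 10 to 25 Mb and from 31 to 42 Mb were alike in number of peaks. Their median scores were also close, at 114.4 and 108.6 in replicate 1 and 117.1 and 113.4 in replicate 2. They differed in the share of the strongest peaks. From 10 to 25 Mb, 48 peaks of replicate 1 (2.51%) and 47 of replicate 2 (2.44%) were in the top 1% of scores, against 11 (0.859%) and 13 (1.05%) from 31 to 42 Mb. The stretch from 3 to 6 Mb was nearly as dense as that from 31 to 42 Mb, with 110.7 and 105.7 peaks per Mb. It had 1 such peak in each list, and so did the first 3 Mb, with 67.7 and 66.0 peaks per Mb. Wide peaks were spread more evenly: 1.26% and 1.97% of peaks exceeded 5 kb from 10 to 25 Mb, and 0.703% and 1.53% from 31 to 42 Mb.

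The shares of high-score and of wide peaks were both lower without the 3 windows richest in strong and wide regions, which the choice of those windows largely dictates. Without the windows at 11, 17 and 21 Mb, and with the 3 richest windows removed from every other chromosome too, the share of chromosome 22 peaks in the top 1% was 0.979% in replicate 1 and 1.09% in replicate 2, ranks of 4 and 3. Of the remaining peaks 0.588% and 1.23% exceeded 5 kb, the highest shares in both lists (0.519% on chromosome 4 and 0.790% on chromosome 18 came next). This comparison was chosen after the data had been seen. The 3 windows are also a larger part of chromosome 22, with 42 full windows, than of chromosome 7, with 77.

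Around the strong and wide regions 5hmC was dense, as it was around such regions elsewhere. Within 50 kb of them, with the regions themselves left out, lay 251 other consensus regions at 174.1 per Mb, against 73.7 per Mb over the whole of chromosome 22, a ratio of 2.36. On the other chromosomes the ratio for their own strong and wide regions had a median of 2.31 (range 1.83 to 3.96), and chromosome 22 ranked 10 of 25. By the density itself it ranked 21. The ratio was 2.55 within 20 kb, 2.14 within 100 kb and 1.55 within 500 kb. Neighbours within 50 kb were wider than the regions farther away (median 1807 bp against 1445 bp) and scored higher (median 208.7 against 123.0 in replicate 1, and 211.0 against 131.2 in replicate 2). Of the neighbours 5.18% (13 regions) exceeded 5 kb, against 1.41% (40 regions) of the regions farther away. The neighbours lay in only 13 separate zones. Their widths and scores were not compared with those of neighbours on other chromosomes, so whether they are particular to chromosome 22 cannot be told.

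Any consensus region of chromosome 22 tends to have others nearby, so density was also measured from each region outward. At 20 to 50 kb from an edge, the median density was 150 regions per Mb around the 22 strong and wide regions (quartiles 117 and 229) and 117 around the 3092 others (quartiles 66.7 and 167). At 200 to 500 kb the medians were 101 and 88.3 per Mb. The quartile ranges overlapped or touched at every distance, and the medians were closest at 200 to 500 kb.

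**Figure D5:**
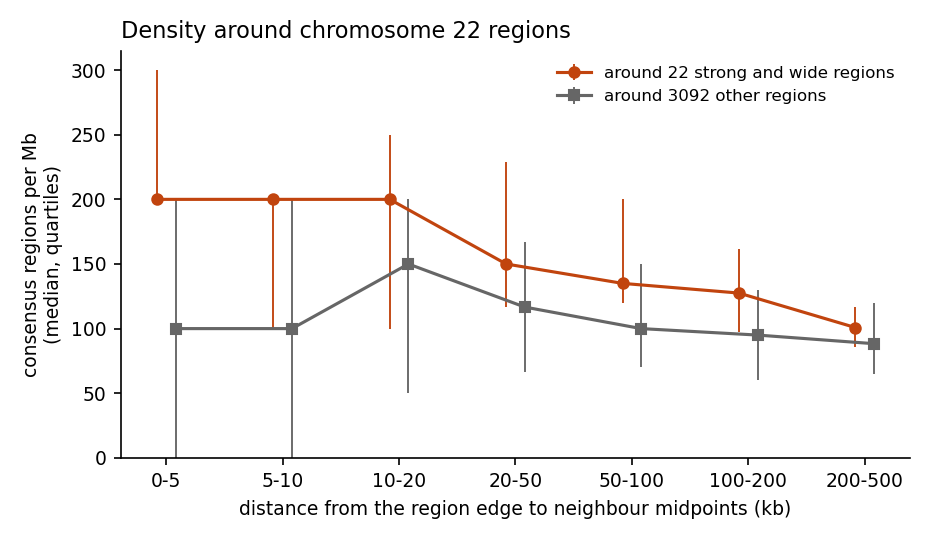
Median number of consensus regions per Mb by distance from the edge of a chromosome 22 region, for the 22 strong and wide regions and for the 3092 other regions. Bars span the quartiles over regions. The median around strong and wide regions is 200 per Mb at up to 5 kb and 101 per Mb at 200 to 500 kb, against 100 and 88.3 around the others. So short a distance as 5 kb holds few neighbours per region, so the medians there are coarse.

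Agreement between the captures on chromosome 22 was in the upper or the middle part of the 25 chromosomes, depending on the measure. In replicate 1, 3257 chromosome 22 peaks had a partner in replicate 2, which is 79.9% (Wilson interval 78.7 to 81.1%), where 79.0% of all peaks had one. In the other direction it was 3205 peaks, or 78.7% (77.5 to 80.0%), where 77.4% of all peaks had one. Both shares ranked 6 of 25. Both are close to the values over all chromosomes. Of the 7.43 Mb under a peak of some list, 4.58 Mb were under peaks of both, which gives a Jaccard index of 0.617, rank 4. Spearman's rho of the scores over the 2925 pairs was 0.66, rank 9, and that of the widths was 0.81, rank 13. Over the 42 windows, neighbours of which share parts of the same dense stretches, rho of the peak numbers was 0.98, and the 2 numbers differed by a median of 5 peaks and at most 15. Replicate 1 had more peaks in 20 windows, replicate 2 in 18, and 4 were equal.

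Every chromosome 22 peak in the top 1% of scores or wider than 5 kb had a partner in the other list. That covers 61 and 62 strong peaks and 35 and 64 wide ones. On the other chromosomes it was nearly so: 99.8% of the strong peaks of replicate 1 and 100% of those of replicate 2 had a partner, as did 98.6% and 99.0% of the wide ones. A partner was not always as strong: 44 of the 61 in replicate 1 and 40 of the 62 in replicate 2 overlapped a peak that was in the top 1% too. Of the 35 wide peaks of replicate 1, 32 overlapped a wide peak of replicate 2, and 32 of the 64 wide peaks of replicate 2 overlapped a wide peak of replicate 1. Overlaps of strong with strong and of wide with wide peaks were not counted on the other chromosomes. Whether they are particular to chromosome 22 thus cannot be told. Among the weakest peaks, those of the lowest score decile, sharing was 48.6% in replicate 1 and 44.9% in replicate 2, close to the 49.0% and 45.1% of the other chromosomes.

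Unshared peaks were weak, with medians of 67.2 in replicate 1 (818 peaks) and 69.4 in replicate 2 (865 peaks). Shared peaks had medians of 127.1 and 134.1. The strongest unshared peaks of replicate 1 were at 15973559 to 15974460 (score 257.3), 18498582 to 18500722 (256.4), 33057509 to 33061998 (232.9), 38568398 to 38569716 (217.2) and 21350545 to 21351912 (210.9). Those of replicate 2 were at 60792 to 63354 (258.5), 18572553 to 18574370 (217.4), 6669516 to 6670047 (215.1), 41829256 to 41831202 (212.3) and 4214608 to 4218621 (200.6). Each lay 605 to 7614 bp from the nearest peak of the other list. Gaps within a list had chromosome 22 medians inside this range, at 2970 (replicate 1) and 2998 bp (replicate 2). Ordinary spacing can thus give such distances, and they cannot tell whether the other capture had related calls.

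Scores of paired peaks could still differ widely. In 408 of the 2925 pairs (13.9%) they differed by more than 2 times, a share that was not computed for the other chromosomes. The 5 pairs that differed most were all higher in replicate 2: 18896224 to 18899722 in replicate 1 scored 55.7 against 476.4 for its partner, 33732367 to 33733549 had 62.8 against 335.2, 33595423 to 33597935 had 72.2 against 363.3, 4317722 to 4319913 had 75.9 against 358.2, and 41362193 to 41364944 had 77.4 against 359.1. Their replicate 1 scores, 55.7 to 77.4, lay not far above 50.0, the lowest score in either list. These were weak calls in replicate 1, so the 5 ratios do not describe a general difference between the captures. Over all pairs replicate 2 was higher in 52.4%.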

How the data were processed

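DNA from dissected hearts was sheared to a mean of 250 bp, 5hmC was tagged and captured, and the captures were amplified with 12 PCR cycles, per the labels' protocols. Per the labels' protocols, adapters were trimmed and BWA aligned the reads; the build was danRer7, per the submitters' processing notes. The deposited files hold 1 peak list per capture with starts, ends and a score. Peak names carry the name MACS; the version, the settings and any use of the input were not given in the sources used here. Sequencing aimed at about 30M reads per library, per the labels, and the depth behind single peaks is unknown.

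Starts were counted from 1. Overlaps, merging and ranks were computed with numpy 2.4.6, pandas 2.3.3, scipy 1.17.1 and matplotlib 3.10.9 (figures) under Python 3.11.15. Sharing meant at least 1 bp of overlap. The last end of any peak set the length of a chromosome. Where a consensus region held several peaks of a list, the highest score was used. Windows were filled by midpoint, and the last, incomplete window was left out. Wilson intervals are at 95%. With 1 condition and 2 captures no test between groups was possible, and ranks among 25 chromosomes are descriptions. Overlap functions were tested on the chromosome 22 peaks of replicate 1 against a thinned and trimmed copy with added intervals. Merging was tested on a few invented intervals. Peaks divided in a single list were not part of the overlap test. The regions named are the 10 strongest and 10 widest of chromosome 22, all strong and wide ones, the 5 fullest and 5 emptiest windows, the 3 longest gaps, and the 5 strongest unshared peaks per list and 5 most unequal pairs; other regions and the groups were named after their values were seen. The members, limits and rules were chosen with earlier results of these data known. A genome of danRer7 was not used here, so no sequence or gene is given.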

Additional observations from a re-analysis of the deposited data

How the results depend on the processing

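Of 46 alternative values for chromosome 22, 19 stayed near the reported value and 27 moved, and a value without a direction could not reverse. Near means within 1.5 times for numbers of peaks or regions and otherwise within 1 SD between captures or chromosomes. When peaks at or under the median score of their list were dropped, the averages over both captures became 50.1 peaks per Mb, 8.93% covered, a median width of 1460 bp and 75.6% shared, the Jaccard index 0.583, rho of the scores 0.58 and the median window 33.5 regions. Joining peaks within 500 bp gave 84.6 peaks per Mb, a median width of 1259 bp and 126 peaks over 5 kb in place of an average of 49.5. The median score of shared peaks alone was 130.6. An overlap of 50% of both peaks gave 73.1% shared. On average 14.5 peaks were in the top 0.1% and 231 in the top 5%, and 217 exceeded 3 kb and 2.5 exceeded 10 kb, as the limits dictate. A limit of 2% gave 46 strong and wide regions. Windows of 0.5 and 2 Mb, scaled to 1 Mb, had medians of 68 and 77 regions. The density ratio around strong and wide regions was 2.55, 2.14 and 1.55 at 20, 100 and 500 kb. In 1 list alone, where peaks take the place of regions and both limits were set anew in the list, with a lower width limit, it was 2.16 to 2.24, with 38 to 39 strong and wide peaks. Leaving out the 3 richest windows, added after the data were seen, lowered the average top 1% share to 1.04%, as the choice of windows largely dictates. No paired analysis was possible because values of the inputs, numbered like the captures, were not analysed here.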

Other observations

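Within each of 5 width classes, the median score of chromosome 22 peaks stayed within the range of the other chromosomes in both captures. The classes are coarse and the last, over 5 kb, has no upper limit, so widths were not matched inside a class. In the class of 1 to 2 kb the median score was 113.3 in replicate 1 and 114.6 in replicate 2 on chromosome 22, against 112.4 and 112.9 elsewhere. Among peaks over 5 kb it was 925.7 and 753.2, against 704.2 and 672.6, ranks of 3 and 5 of 25. That class held 0.859% and 1.57% of chromosome 22 peaks, against 0.358% and 0.614% of the peaks elsewhere.

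Median widths were above that of the chromosome in both end windows. In the first 1 Mb, 107 consensus regions had a median width of 1947 bp and covered 23.4% of it, with 132 peaks in each list, and 5 regions exceeded 5 kb. The last 1 Mb had 78 regions with a median width of 1812 bp that covered 15.1% of it, and 0 exceeded 5 kb. The median over the chromosome was 1468 bp. The windows from 1 to 3 Mb had 21 regions each.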
